A study of Mus musculus with 6 samples.

Results

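The 10 genes below, which encode transcription regulators of pachytene spermatocytes and round spermatids, were followed in testes of KIFC1 knockout mice. They were Mybl1, Tcfl5, Brdt, Ovol1, Pou5f2, Rfx2, Crem, Sox30, Tbpl1 and Taf7l. They were taken by name, as the rows whose Ensembl identifier maps to these symbols in GENCODE mouse release M21. All 10 were found among 51826 identifiers, and all 10 passed the filter on low counts, with 21518 genes tested. Bulk RNA sequencing was done on whole testis, at 8 weeks of age on the C57BL/6J strain, with 3 samples labelled KIFC1 knockout and 3 labelled wild type. KIFC1 is a minus-end-directed kinesin motor, and the labels give neither its allele nor how the knockout was made. Nothing in the labels ties each sample to its own animal, and p-values therefore describe only how far these samples scatter, which may be technical.

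Male germ cells pass through long, dedicated transcription programmes. In mouse pachytene spermatocytes A-MYB, the product of Mybl1, switches on meiotic and piRNA pathway genes, and it acts together with TCFL5 and with BRDT, a reader of acetylated histones. After meiosis RFX2, CREM and SOX30 drive genes of the spermatid, of its flagellum and of nuclear condensation, and the general transcription machinery is varied by TBPL1, a relative of the TATA-binding protein, and TAF7L, a relative of the TFIID subunit TAF7.

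Levels are given as CPM, each gene's count scaled to a common library total after TMM scaling, and fold changes are knockout over wild type. The libraries held 32129093 to 38169198 counts in knockout and 29274603 to 38703606 in wild type. Kifc1 itself stood at 0.326, 0.737 and 0.282 CPM in knockout samples 1, 2 and 3, against 15.5, 16.1 and 14.7 CPM in wild-type samples 1, 2 and 3. Mitochondrial genes held 5.74%, 1.54% and 4.29% of counts in knockout samples 1, 2 and 3, and 0.661% to 0.935% in wild type. Each library also deviated from the mean of all libraries with the GC content of genes, at a Spearman rho of -0.677 to -0.128 in knockout and 0.269 to 0.533 in wild type over 12751 genes, which are not independent replicates. Of 10 marker lists, spermatocyte genes summed to 712 to 772 CPM in knockout and 671 to 685 CPM in wild type. Round spermatid genes summed to 1629 to 2086 and 1590 to 2055 CPM, and Sertoli cell genes to 953 to 1513 and 664 to 986 CPM. Of the 6 spermatocyte genes, 3 had a positive and 3 a negative log2 fold change. Round spermatid and Sertoli cell genes each had 4 positive and 2 negative. Of the 4 epididymal markers, Crisp1, Lcn5 and Lcn8 had 0 counts in every library. The sum of the 4, which include Defb20, was 0.147 CPM in wild-type sample 1 and 0 CPM in the other libraries.

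Of the 10 regulators, 2 rose and 1 fell in knockout testes (edgeR quasi-likelihood test, adjusted p under 0.05). Mybl1 and Brdt were higher and Pou5f2 was lower, and the other 7 did not pass. Among all genes tested 8.23% were called, 3.11% higher and 5.12% lower. The regulators were chosen with earlier results of these data known, so their share is a description. Their median log2 fold change was 0.03, against -0.01 over all genes tested, and the values ran from -0.92 for Pou5f2 to 1.35 for Sox30. The lowest knockout value lay above the highest wild-type value, or the reverse, for 5 of the 10. Mybl1, Brdt and Taf7l lay higher and Ovol1 and Pou5f2 lower. Such separation was seen in 32.7% of all genes tested, 14.6% higher and 18.1% lower. Whole-testis values cannot tell fewer or more cells of a type from less or more RNA per cell.

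**Figure D1:**
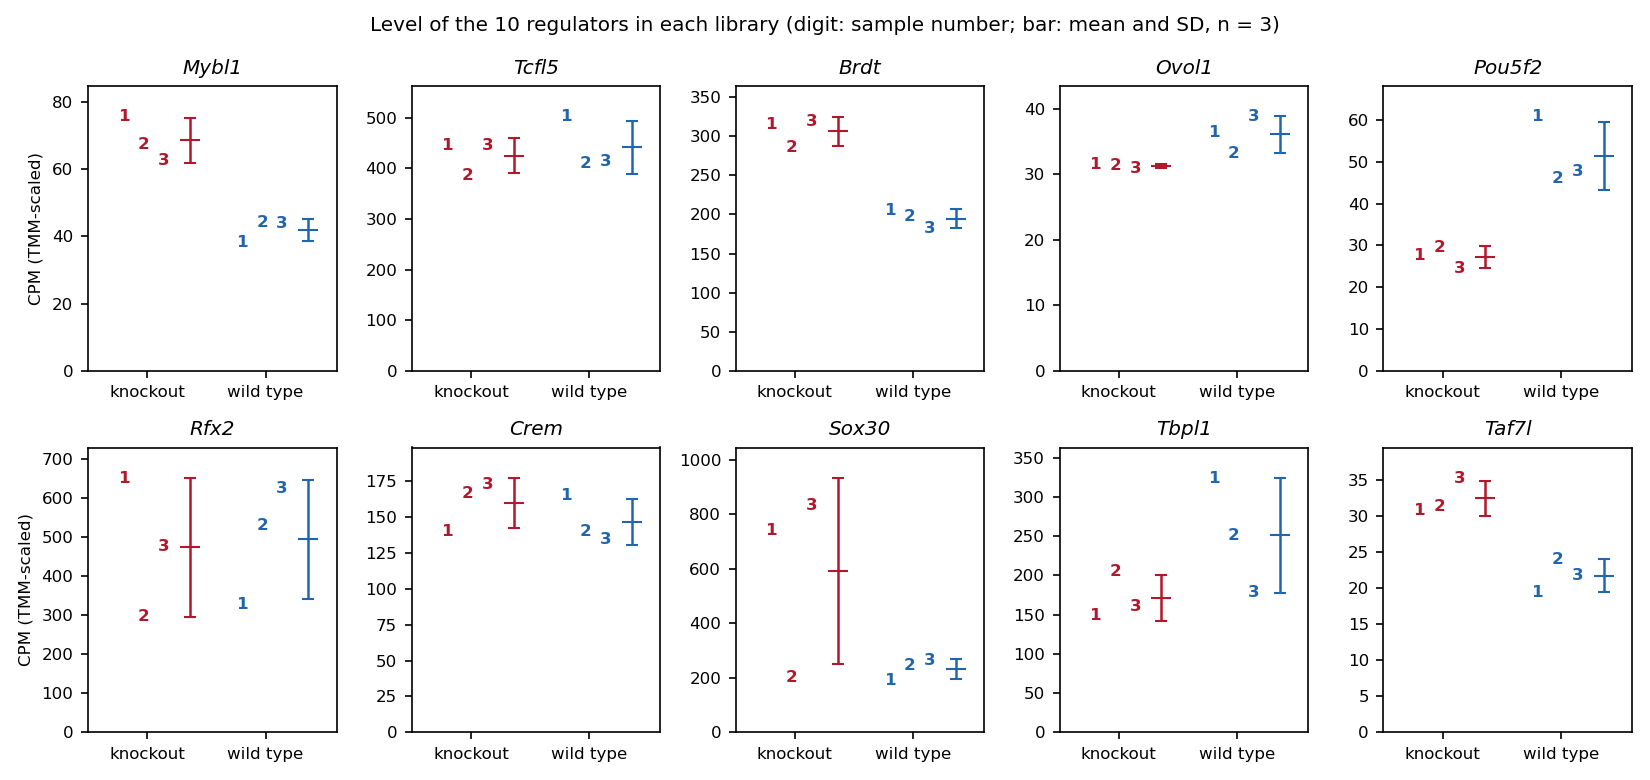
CPM of each regulator in the 3 knockout and 3 wild-type samples, with digits for the sample number and bars for the mean and SD. Knockout values lie above wild type for Mybl1, Brdt and Taf7l and below it for Ovol1 and Pou5f2, and Sox30 has knockout sample 2 among the wild-type values.

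Mybl1 encodes A-MYB, whose loss in mouse arrests spermatocytes at pachytene. Mybl1 (ENSMUSG00000025912, on the minus strand of chromosome 1 at 9667415 to 9700209 in mm10, protein-coding like the other 9) stood at 75.7, 67.3 and 62.7 CPM in knockout samples 1, 2 and 3, and at 38.2, 44.1 and 43.8 CPM in wild-type samples 1, 2 and 3. Every knockout sample was above every wild-type sample. The means were 68.6 ± 6.6 and 42.0 ± 3.3 CPM (SD, n = 3 each), a log2 fold change of 0.71 (SE 0.15, adjusted p = 0.028 by edgeR). At 36.7% exon GC, against a median of 48.8% over all genes tested, Mybl1 was the most AT-rich of the 10. After removal of the trends of each library with exon GC content and exon length, it stood at 60.1, 52.7 and 56.3 CPM in knockout and 47.9, 52.3 and 52.8 CPM in wild type, and the groups overlapped. Its log2 fold change was then 0.14 (SE 0.13, adjusted p = 0.545).

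Brdt encodes the testis member of the BET family, which reads acetylated histones in spermatocytes and takes part in histone removal in spermatids. Brdt (ENSMUSG00000029279, chromosome 5, 107331159 to 107387058, plus strand) stood at 315, 285 and 319 CPM in knockout and at 205, 197 and 182 CPM in wild type. The groups did not overlap, and the lowest knockout value was that of sample 2. The means were 306 ± 18.6 and 195 ± 11.7 CPM (SD, n = 3 each), with a log2 fold change of 0.65 (SE 0.13, adjusted p = 0.0253 by edgeR). Removal of the trends gave 301, 261 and 316 CPM in knockout against 218, 205 and 190 CPM in wild type, which still did not overlap, at a log2 fold change of 0.52 (SE 0.13, adjusted p = 0.0878).

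Pou5f2, also known as Sprm-1, encodes a POU homeodomain protein of male germ cells. Pou5f2 (ENSMUSG00000093668, chromosome 13, 78024902 to 78026295, plus strand) is a gene of 1394 exon bases that lies within the span of Fam172a on the same strand and shares 0 exon bases with it. It stood at 27.7, 29.6 and 24.5 CPM in knockout and at 60.8, 46.0 and 47.6 CPM in wild type. The 3 knockout samples lay close together, and wild-type sample 1 was the highest. The means were 27.2 ± 2.58 and 51.5 ± 8.15 CPM (SD, n = 3 each), with a log2 fold change of -0.92 (SE 0.17, adjusted p = 0.0206 by edgeR), so that 52.9% of the wild-type level was left. Fam172a, whose unspliced RNA would include these bases, had 9.35 to 15.7 CPM in knockout and 8.22 to 9.34 CPM in wild type. After the trends were removed Pou5f2 stood at 31.8, 32.0 and 24.8 CPM in knockout and 51.3, 43.0 and 47.9 CPM in wild type (log2 fold change -0.68, SE 0.16, adjusted p = 0.0749).

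These 3 calls depended on the libraries and on the scaling by base composition. With the trends removed the log2 fold change moved from 0.71 to 0.14 for Mybl1. It moved less for Brdt, from 0.65 to 0.52, and for Pou5f2, from -0.92 to -0.68. The GC trends had opposite signs in knockout and wild type, so they cannot be told apart from genotype. Removing them may also remove differences of genotype. When the trends were removed 0 of the 10 passed in edgeR, where 0.0837% of all genes did, and the groups did not overlap for 5 regulators, Brdt, Sox30 and Taf7l being higher and Pou5f2 and Tbpl1 lower, against 27.6% of all genes in that fit. The same 5 had an unadjusted p under 0.05 there, 3 higher and 2 lower, a threshold that 22.3% of all genes passed. With the trends left in, 4 regulators were higher and 2 lower at an unadjusted p under 0.05, against 12.1% and 15.0% of all genes. Without knockout sample 1 the adjusted p was 0.131 for Mybl1, 0.117 for Brdt and 0.102 for Pou5f2. It was also above the threshold for all 3 without knockout sample 3 and without wild-type sample 1, 2 or 3, where the lowest value was 0.0526, for Pou5f2 without wild-type sample 3. Without knockout sample 2 they were 0.022, 0.0124 and 0.0158. That fit called 5 of the 10 and 14.3% of all genes. DESeq2 called the same 3 with Sox30 and Taf7l, 4 higher and 1 lower, where 15.4% of all genes passed.

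**Figure D2:**
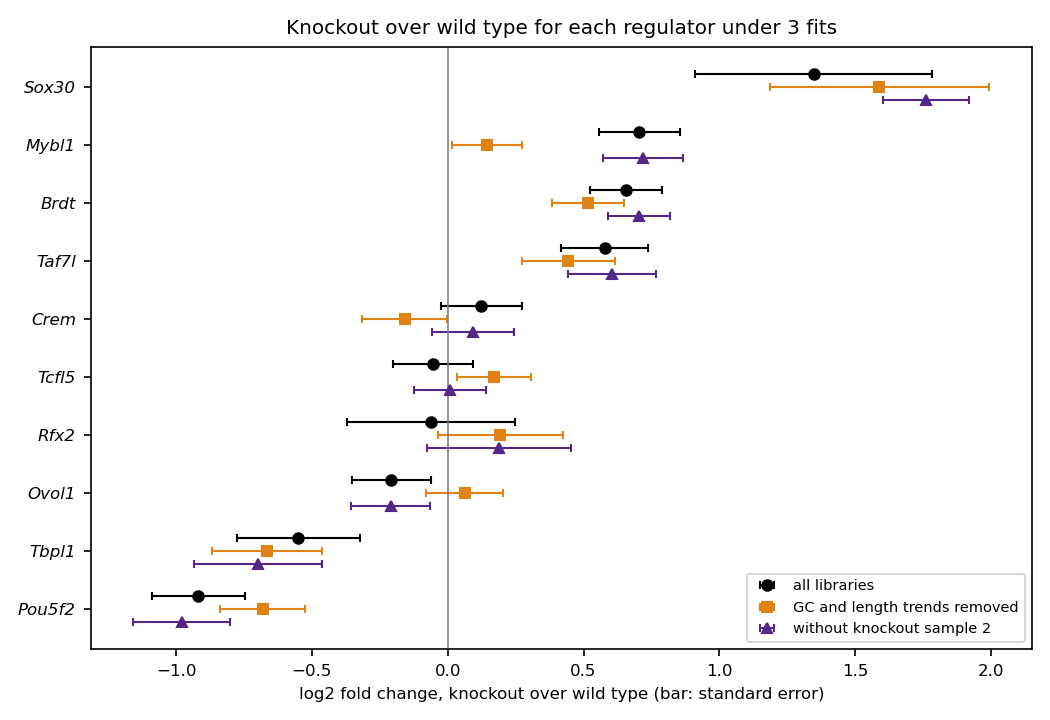
Log2 fold change of each regulator, knockout over wild type, with standard errors, from all libraries, with GC and length trends removed, and without knockout sample 2. Mybl1 moves from 0.71 to 0.14 when the trends are removed, while Sox30, Brdt, Taf7l, Tbpl1 and Pou5f2 keep their direction in all 3 fits.

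Promoter windows were available for 7 of the 10 regulators, as RefSeq sequences on GRCm38.p6 that run from 250 bases before to 50 bases after the annotated start. Brdt and Taf7l are shown because they were the only windows of the 7 that hold the E-box CACGTG, the palindromic core bound by many basic helix-loop-helix proteins, the family of TCFL5. The E-box is in capitals, 78 bases before the start in Brdt and 49 bases before it in Taf7l. The windows lie at chr5:107330944-107331243 on the plus strand and chrX:134476441-134476740 on the minus strand.
Brdt: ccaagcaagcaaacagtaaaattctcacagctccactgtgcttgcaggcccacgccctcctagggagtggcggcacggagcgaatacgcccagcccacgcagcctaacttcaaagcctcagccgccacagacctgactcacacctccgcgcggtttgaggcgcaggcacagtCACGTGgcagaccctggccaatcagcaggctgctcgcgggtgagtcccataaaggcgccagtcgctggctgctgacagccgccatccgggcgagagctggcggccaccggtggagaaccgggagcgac
Taf7l: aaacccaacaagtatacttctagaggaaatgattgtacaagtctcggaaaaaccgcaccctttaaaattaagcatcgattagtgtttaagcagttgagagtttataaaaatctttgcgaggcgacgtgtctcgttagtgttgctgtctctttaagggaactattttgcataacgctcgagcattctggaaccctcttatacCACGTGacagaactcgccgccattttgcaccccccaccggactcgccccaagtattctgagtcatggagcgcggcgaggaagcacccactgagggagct

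An E-box was present in 7.15% of 32851 such windows of all genes. Both regulators lay higher in knockout with no overlap of the groups, as did 14.6% of all genes tested, and Taf7l was not called in edgeR. A link between the E-box and these levels was not tested. Sox30, which had the largest fold change, and Pou5f2, which fell, are shown with the MYB core AACNG, or CNGTT on the other strand, in capitals. They lie at chr11:45980060-45980359 and chr13:78024652-78024951, both on the plus strand.
Sox30: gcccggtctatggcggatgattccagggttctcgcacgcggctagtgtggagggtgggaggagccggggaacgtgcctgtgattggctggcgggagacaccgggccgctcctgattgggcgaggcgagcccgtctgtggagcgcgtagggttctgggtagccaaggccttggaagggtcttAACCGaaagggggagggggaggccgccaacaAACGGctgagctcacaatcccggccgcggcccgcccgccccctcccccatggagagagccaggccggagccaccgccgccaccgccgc
Pou5f2: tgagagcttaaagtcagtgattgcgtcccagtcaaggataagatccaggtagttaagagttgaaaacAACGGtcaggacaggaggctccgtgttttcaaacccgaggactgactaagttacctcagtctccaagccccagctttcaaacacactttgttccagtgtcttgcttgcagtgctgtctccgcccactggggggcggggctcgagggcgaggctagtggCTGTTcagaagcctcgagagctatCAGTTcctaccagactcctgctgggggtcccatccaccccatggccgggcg

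The MYB core occurred in 7 of 7 windows, and in 80.3% of all windows. It had 2 matches in Sox30, 3 in Pou5f2, 3 in Brdt and 2 in Taf7l. The shorter site TGACG of CREB and CREM proteins, or CGTCA on the other strand, was present in 1 of the 7 windows, that of Rfx2, and in 20.8% of all windows. Its full form TGACGTCA, which contains the shorter site, occurred in 0 of the 7 and in 1.79% of all. The SOX core ACAAT, or ATTGT on the other strand, was present in Sox30 and Taf7l, and in 31.0% of all windows. Each match is a description of letters in these windows.

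Taf7l encodes the X-linked relative of TAF7, a subunit of the TFIID complex, and is expressed in germ cells. Taf7l (ENSMUSG00000009596, chromosome X, 134460118 to 134476490, minus strand) stood at 30.8, 31.3 and 35.3 CPM in knockout and at 19.4, 24.0 and 21.8 CPM in wild type. Every knockout sample was above every wild-type sample. The log2 fold change was 0.58 (SE 0.16), with an edgeR adjusted p of 0.0589 and 0.0112 by DESeq2. Without knockout sample 2 edgeR called it (adjusted p = 0.0472), and with the trends removed it stood at 0.44 (SE 0.17, adjusted p = 0.178).

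Tbpl1 encodes TRF2, a relative of the TATA-binding protein that mouse spermatids need. Tbpl1 (ENSMUSG00000071359, chromosome 10, 22703879 to 22731938, minus strand) stood at 149, 205 and 160 CPM in knockout and at 324, 251 and 178 CPM in wild type. Knockout sample 2 was above wild-type sample 3, so the groups overlapped, and the wild-type samples spread most. The log2 fold change was -0.55 (SE 0.23, adjusted p = 0.161 by edgeR). With the trends removed it was -0.66 (SE 0.20, adjusted p = 0.115), and the groups of 146, 190 and 156 CPM in knockout and 327, 260 and 192 CPM in wild type no longer overlapped. Its exons share 407 bases with Slc2a12 on the opposite strand, which had 4.22 to 7.14 CPM in the 6 libraries, and the strand setting of the counting is not given.

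Sox30 encodes an HMG-box factor that mouse round spermatids need to develop further. Sox30 (ENSMUSG00000040489, chromosome 11, 45980310 to 46017994, plus strand) stood at 741, 200 and 831 CPM in knockout samples 1, 2 and 3, and at 189, 245 and 262 CPM in wild-type samples 1, 2 and 3. Knockout samples 1 and 3 were far above wild type, and knockout sample 2 lay within the wild-type range. The means were 591 ± 341 and 232 ± 38.1 CPM (SD, n = 3 each), with a log2 fold change of 1.35 (SE 0.44, adjusted p = 0.0897 by edgeR, DESeq2 adjusted p = 0.00675). With the trends removed Sox30 stood at 807, 240 and 852 CPM in knockout and at 174, 219 and 238 CPM in wild type. The groups then did not overlap, but knockout sample 2 lay only just above wild-type sample 3. That fit gave a log2 fold change of 1.59 (SE 0.40, adjusted p = 0.0871 by edgeR). Without knockout sample 2 the log2 fold change was 1.76 (SE 0.16, adjusted p = 0.00322 by edgeR). It was 1.98 (SE 0.15, adjusted p = 0.00319) when the trends were removed as well. That last fit called Sox30, Brdt and Pou5f2 among the 10, and 13.2% of all genes.

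Knockout samples 1 and 3 stood above sample 2 in the same way for Brd3 and Smcp. Brd3, a gene of the BET family, stood at 451, 208 and 492 CPM in knockout samples 1, 2 and 3, and at 208, 221 and 231 CPM in wild type. Smcp, of the sperm mitochondrial capsule, stood at 7584, 2206 and 9260 CPM in knockout and at 1549, 1934 and 1861 CPM in wild type. The share of counts from mitochondrial genes was 5.74%, 1.54% and 4.29% in the same knockout libraries. Leaving the mitochondrial genes out before scaling gave Sox30 a log2 fold change of 1.36 (adjusted p = 0.0823 by edgeR). The part of the library differences in the Sox30 result was otherwise not tested.

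**Figure D3:**
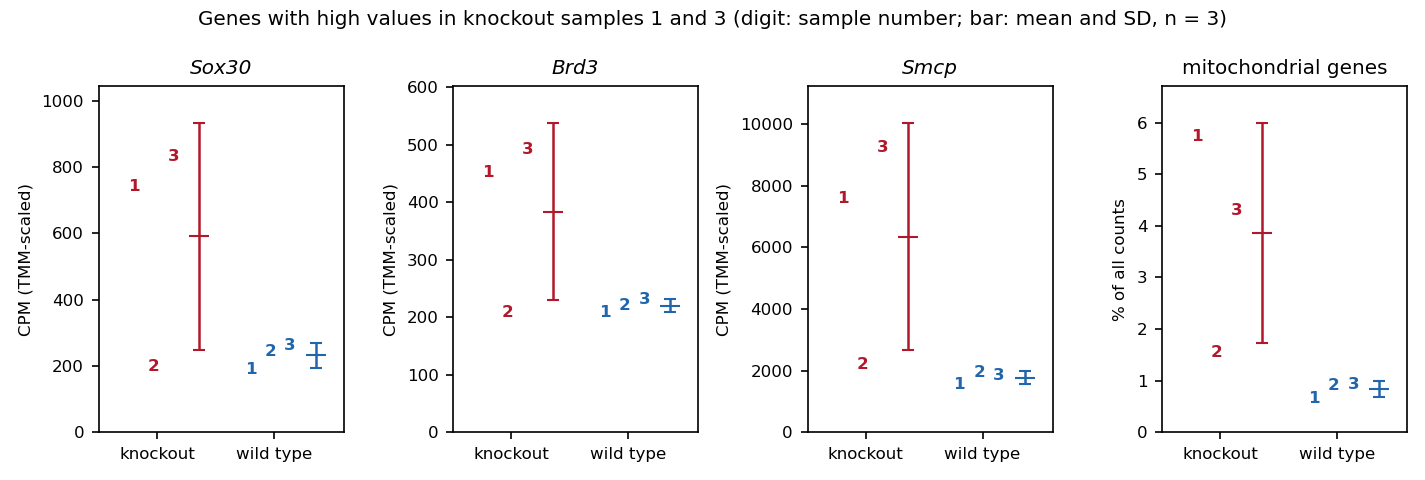
CPM of Sox30, Brd3 and Smcp, and the percentage of counts from mitochondrial genes, in each knockout and wild-type sample, with digits for the sample number and bars for the mean and SD. In each panel knockout samples 1 and 3 lie above knockout sample 2, which stands at 200 CPM for Sox30 and at 1.54% for mitochondrial genes.

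Rfx2 encodes a winged-helix factor that drives genes of spermatid development and of the flagellum. Rfx2 (ENSMUSG00000024206, chromosome 17, 56775897 to 56831013, minus strand) stood at 650, 296 and 474 CPM in knockout and at 327, 528 and 624 CPM in wild type. Each group held a low and a high sample, and the ranges overlapped almost in full. The log2 fold change was -0.06 (SE 0.31, adjusted p = 0.925 by edgeR), the widest error of the 10 after Sox30. Without knockout sample 2 its sign turned, to 0.19 (SE 0.27).

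Crem encodes activators and repressors of cAMP-responsive genes, of which the activator forms switch on spermatid genes in mouse. Crem (ENSMUSG00000063889, chromosome 18, 3266048 to 3337748, minus strand) has 39 annotated transcripts, and the counts per gene do not tell its activator and repressor forms apart. It stood at 140, 166 and 172 CPM in knockout and at 165, 140 and 134 CPM in wild type, with overlapping groups. The log2 fold change was 0.12 (SE 0.15, adjusted p = 0.638 by edgeR), and -0.16 (SE 0.16, adjusted p = 0.588) with the trends removed. Its exons share 472 bases with Gm6225 on the opposite strand.

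Tcfl5 encodes a basic helix-loop-helix factor that mouse spermatocytes and spermatids need. Tcfl5 (ENSMUSG00000038932, chromosome 2, 180621956 to 180642708, minus strand) stood at 445, 386 and 445 CPM in knockout and at 503, 409 and 414 CPM in wild type. The groups overlapped, and the log2 fold change was -0.06 (SE 0.15, adjusted p = 0.841 by edgeR) or 0.17 (SE 0.14, adjusted p = 0.5) with the trends removed. It shares 234 exon bases with Col9a3 on the opposite strand, which had at most 4.22 CPM in any library.

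Ovol1 encodes a zinc-finger repressor that acts in mouse pachytene spermatocytes. Ovol1 (ENSMUSG00000024922, chromosome 19, 5549136 to 5560646, minus strand) stood at 31.5, 31.4 and 30.9 CPM in knockout and at 36.3, 33.2 and 38.8 CPM in wild type. All knockout samples lay below all wild-type samples, by a small margin. The log2 fold change was -0.21 (SE 0.14, adjusted p = 0.391 by edgeR), and 0.06 (SE 0.14) with the trends removed, when the groups overlapped. Its exons share 690 bases with the opposite-strand pseudogene Gm31166, which had 57.9 to 104 CPM in knockout and 42.5 to 72.1 CPM in wild type, so the Ovol1 level is uncertain.

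Levels of different genes were compared as CPM per kilobase of exon, over the union of all annotated exons. Tcfl5 led in wild type at 140 ± 16.6 (SD, n = 3), followed by Sox30 at 77.5 ± 12.7, Tbpl1 at 76.7 ± 22.3 and Rfx2 at 67.5 ± 20.7 CPM per kilobase, which overlapped one another. Brdt at 38.1 ± 2.28 and Pou5f2 at 36.9 ± 5.84 CPM per kilobase formed the next overlapping pair, then came Crem at 24.8 ± 2.72. Ovol1 at 10.4 ± 0.812 and Taf7l at 9.68 ± 1.02 overlapped, and Mybl1 was lowest at 7.78 ± 0.612 CPM per kilobase. In knockout Sox30 had the highest mean, 197 ± 114, but overlapped with Tcfl5 at 134 ± 10.7 CPM per kilobase. Brdt at 59.9 ± 3.64 then stood above Pou5f2 at 19.5 ± 1.85 without overlap, and Ovol1 was lowest at 8.96 ± 0.08 CPM per kilobase.

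**Figure D4:**
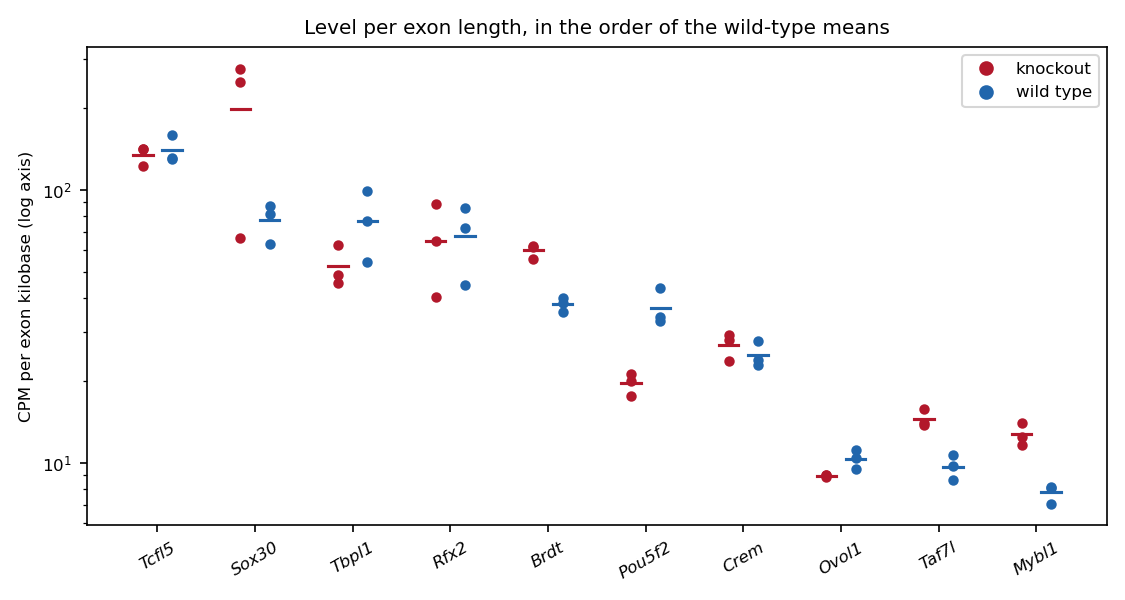
CPM per exon kilobase of the 10 regulators on a log axis, with a point for each sample and a line for each mean, knockout left of wild type. Tcfl5 leads the wild-type order at 140 CPM per kilobase and Mybl1 closes it at 7.78, while in knockout Ovol1 is lowest at 8.96.

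All regulators but Tcfl5 were also set against a relative within the same library, which does not depend on the scaling between libraries. In 9 pairs the log2 ratio of CPM per kilobase was tested with a two-sided exact permutation test, which cannot go below p = 0.1 with 3 samples against 3. The smallest adjusted p over the 9 pairs was 0.45. The log2 ratio of Mybl1 to Mybl2, a relative of dividing cells, was 2.43, 2.63 and 2.05 in knockout and 1.77, 1.76 and 1.13 in wild type. These groups did not overlap, with a difference of 0.82 (exact p = 0.1), which was -0.07 with the trends removed. The log2 ratio of Pou5f2 to Pou2f1, which encodes the broadly expressed OCT1, was 3.27, 4.29 and 3.99 in knockout and 5.84, 4.66 and 4.47 in wild type, a difference of -1.14 (exact p = 0.1) without overlap. It was -0.56 with the trends removed, when the groups overlapped. Pou2f1 shares 3007 exon bases with Cd247 on the opposite strand, so this ratio is uncertain.

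In the other 7 pairs the groups overlapped. Taf7l stood at log2 ratios of 1.18, 0.941 and 1.43 to Taf7 in knockout and at 1.04, 1.28 and 1.29 in wild type. The relative Taf7 had a log2 fold change of 0.61 (SE 0.17, adjusted p = 0.0594 by edgeR), close to the 0.58 of Taf7l. The ratio of Tbpl1 to Tbp differed by -1.22 (log2, exact p = 0.2), with 1.69, 3.15 and 1.64 in knockout and 3.64, 3.45 and 3.03 in wild type. Knockout sample 2 was again the one nearest wild type. Tbp shares 2582 exon bases with Pdcd2 on the opposite strand and is uncertain for that reason. The differences were 0.14 for Rfx2 to Rfx1, -0.04 for Crem to Creb1, 0.53 for Sox30 to Sox5 and 0.37 for Ovol1 to Ovol2, in log2.

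A list of 42 other regulators and partners of these factors in testis, also chosen with earlier results known, was set beside them. Of 40 tested, 0 rose and 2 fell in edgeR, or 5%, against 8.23% of all genes, and the median log2 fold change was 0.12. At an unadjusted p under 0.05 it had 11 higher and 6 lower, against 12.1% and 15.0% of all genes, and DESeq2 called 5 higher and 2 lower, where it called 15.4% of all genes. Tesmin, which encodes a cysteine-rich protein of spermatocytes, fell to 201 ± 32.6 CPM in knockout, against 330 ± 59.7 CPM in wild type (SD, n = 3 each; log2 fold change -0.71, SE 0.18, adjusted p = 0.0483 by edgeR). Zmynd15, which encodes a repressor of spermatid genes, fell to 173 ± 30.6 CPM in knockout, against 265 ± 2.19 CPM in wild type (-0.62, SE 0.16, adjusted p = 0.0482), and shares 552 exon bases with Cxcl16 on the opposite strand. Both calls stood just under the threshold. Tesmin had -0.47 and Zmynd15 -0.28 with the trends removed, when 0 of the list passed, and the count ran from 0 to 8 with single libraries left out. It was 8 without knockout sample 2 and 0 without any other single sample. The CREM partner Fhl5 stood at 172, 276 and 185 CPM in knockout and at 247, 197 and 182 CPM in wild type, and the transport motor of that partner, Kif17, at 482, 451 and 579 CPM in knockout and at 575, 570 and 594 CPM in wild type. Neither passed the test. Tbpl2 had 0 counts in every library, and Myb was at or under 0.559 CPM.

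A list of 29 genes linked to the regulators was examined next, and includes the regulators Rfx2 and Tcfl5. Each gene was reported in mouse to depend on a regulator or to be bound by one. Of these 29 genes 2 rose and 4 fell, or 20.7%, against 8.23% of all genes tested, with a median log2 fold change of -0.11. The list was chosen with earlier results of these data known, so its share is a description. At an unadjusted p under 0.05 in edgeR it had 4 higher and 7 lower, against 12.1% and 15.0% of all genes. Smcp, linked to CREM, had a log2 fold change of 1.83 (SE 0.44, adjusted p = 0.0384 by edgeR) and the uneven knockout values given above. Ccdc54, linked to SOX30, rose to 530 ± 52.4 CPM in knockout, against 287 ± 21.4 CPM in wild type (SD, n = 3 each, log2 fold change 0.88, SE 0.14, adjusted p = 0.0168 by edgeR). Unlike Sox30 it was high in all 3 knockout samples, at 576, 473 and 542 CPM, against 311, 283 and 268 CPM in wild type. Ccdc54 shares 246 exon bases with an antisense gene.

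Tsks, a substrate of testis kinases that is also linked to SOX30, fell to 399 ± 40.8 CPM in knockout, against 683 ± 42.4 CPM in wild type (-0.78, SE 0.14, adjusted p = 0.0201 by edgeR). Its exon GC content was 62.2%, and its log2 fold change was -0.14 with the trends removed. Of the 4 genes linked to SOX30, which include Hils1 and Tnp1, 1 had a positive and 3 a negative log2 fold change. Their median was -0.58, and -0.25 with the trends removed. Hils1 had -0.70 (SE 0.19, adjusted p = 0.0524 by edgeR), and -0.36 (SE 0.16, adjusted p = 0.228) with the trends removed. Among the nuclear condensation genes linked to both CREM and TBPL1, the protamine gene Prm1 fell to 2086 ± 282 CPM in knockout, against 3296 ± 414 CPM in wild type (-0.66, SE 0.17, adjusted p = 0.045). Tnp2, a transition protein gene, fell to 2727 ± 403 CPM in knockout, against 4217 ± 242 CPM in wild type (-0.63, SE 0.16, adjusted p = 0.0451). With the trends removed Prm1 had -0.38 (SE 0.16, adjusted p = 0.198) and Tnp2 -0.17 (SE 0.14, adjusted p = 0.493), and the groups overlapped for Tnp2. Prm2 (-0.69, SE 0.18, adjusted p = 0.0539) and Tnp1 (-0.45, SE 0.29, adjusted p = 0.349) did not pass. Summed over 6 elongating spermatid markers, 4 of which are these same genes, the level was 12065 to 16037 CPM in knockout and 17794 to 19425 CPM in wild type. Of the 6 markers, 5 had a negative and 1 a positive log2 fold change, with a median of -0.54. With the trends removed the median was -0.24. In that fit 1 was higher and 1 lower at an unadjusted p under 0.05 in edgeR, which 22.3% of all genes passed.

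Of 11 genes linked to A-MYB, 1 was called, or 9.09%, against 8.23% of all genes tested. Ddx39, an RNA helicase gene also named Ddx39a, fell to 58.1 ± 10.9 CPM in knockout, against 97.7 ± 15.8 CPM in wild type (-0.75, SE 0.19, adjusted p = 0.0433 by edgeR), and shares 895 exon bases with Adgre5. The median log2 fold change of these 11 was -0.10, beside 0.71 for Mybl1 itself. With the trends removed these values were -0.06 and 0.14. Piwil1, which encodes a piRNA-binding protein, had a log2 fold change of -0.11 (SE 0.13), and Tdrd1 of 0.23 (SE 0.14). Of the 3 genes linked to RFX2, 0 passed in edgeR or DESeq2 and 1 had an unadjusted p under 0.05 in edgeR, the testis histone gene Hist1h1t, which was low, at 0.852 ± 0.245 CPM in knockout and 1.65 ± 0.365 CPM in wild type. Both genes that OVOL1 is reported to repress were at low levels in either group, and had positive log2 fold changes that did not pass. Id2 stood at 5.6, 4.68 and 4.97 CPM in knockout and 1.67, 3.82 and 3.02 CPM in wild type (0.84, SE 0.31, adjusted p = 0.123 by edgeR). Myc stood at 0.876 ± 0.279 CPM in knockout and 0.478 ± 0.229 CPM in wild type (0.88, SE 0.48, adjusted p = 0.273). After the trends were removed 0 of the 29 passed, and without single libraries 0 to 9 did. The count was 0 without knockout sample 1 or wild-type sample 1, 2 or 3, 2 without knockout sample 3 and 9 without knockout sample 2.

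**Figure D5:**
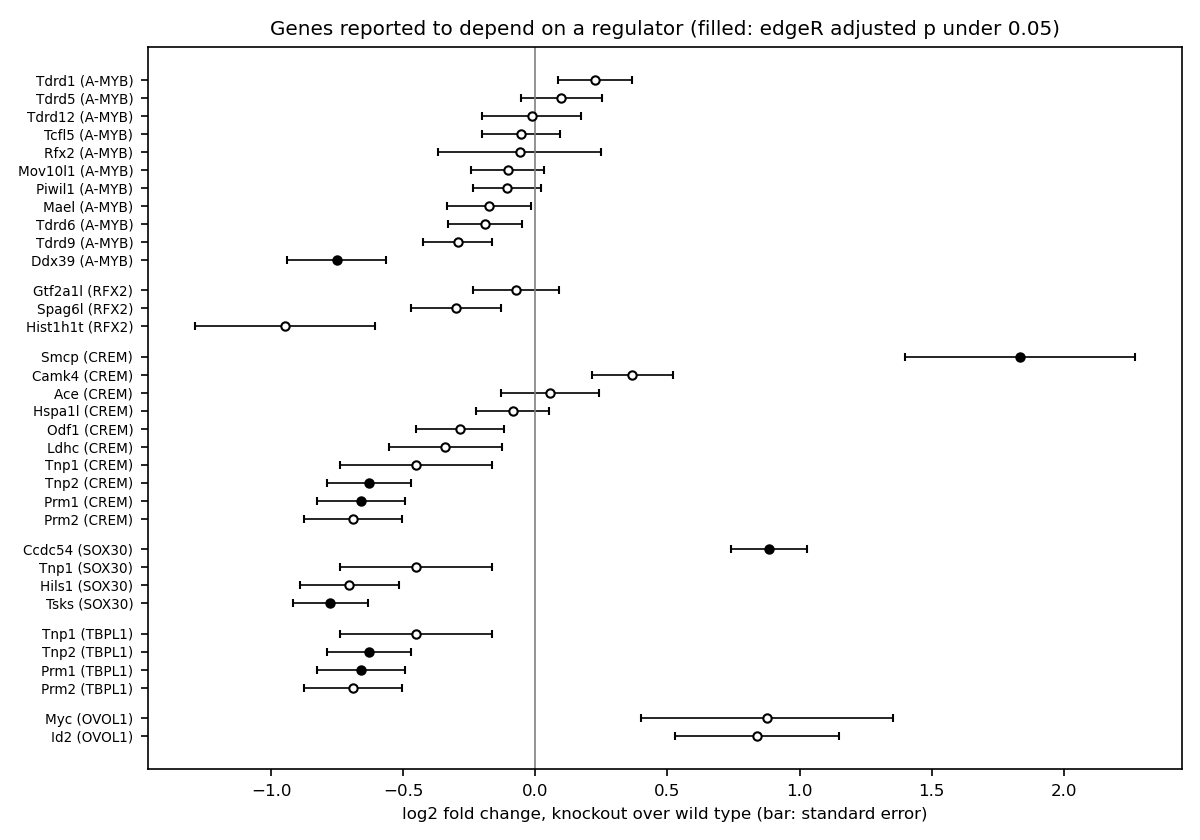
Log2 fold change, knockout over wild type, with standard errors, of 29 genes reported in mouse to depend on a regulator or to be bound by it. They are grouped by that regulator, with filled points for edgeR adjusted p under 0.05. Prm1, Prm2, Tnp1 and Tnp2 lie left of 0, and Smcp (1.83) and Ccdc54 (0.88) lie farthest right among the filled points.

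Across the 6 libraries, the genes whose log2 CPM followed each called regulator most closely were picked, as a description, among 9726 genes that averaged 10 CPM or more. The points share the 2 genotypes and the library trends. For Mybl1 they were Noc3l (Pearson r = 0.9985), Ncoa7 and Snx13 (both 0.994), with exon GC contents of 38.7% to 43.7%. For Brdt they were Dennd5b and Ssx2ip (both 0.997) and the acrosomal gene Eqtn (0.996). For Pou5f2 they were Pxdc1 (0.996), Miip (0.992) and Ptpn9 (0.991), with GC contents of 49.1% to 56.9%.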

How the data were processed

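Whole testes of 3 KIFC1 knockout and 3 wild-type samples were sequenced. Per the submitters' processing notes, reads went through tools that include HISAT2, Trimmomatic and HTSeq, on mm10. Versions, annotation release, strand setting and treatment of multi-mapped reads are not given here by any source. The authors deposited 1 table a sample with whole-number counts for each gene, not normalized. Identifiers were matched to GENCODE M21 on GRCm38, the assembly named mm10 (51633 of 51826 matched), which gave symbols, coordinates, exon length and GC content.

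Counts of all genes were tested with edgeR 4.0.16 in R 4.3.3 (quasi-likelihood, TMM, filterByExpr, no covariates, two-sided), with Benjamini-Hochberg adjustment over 21518 genes and a threshold of 0.05. SE is the size of the fold change over the square root of F. Ratios used exact permutation tests (SciPy 1.17.1). Trends with GC content and exon length were removed by natural splines (5 degrees of freedom) through 12751 genes whose mean log2 CPM exceeded 2. Other alternatives were DESeq2 1.42.0, other scalings and filters, a replicate block and each sample left out. The edgeR step was first run on simulated data.

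The members and lists were chosen with earlier results of these data known. All 10 members were named, as were called genes of the 2 lists, the relatives, and the 3 most similar genes of each called member. Tdrd1, Piwil1, Fhl5, Kif17, Brd3, Prm2, Tnp1, Hils1, Id2, Myc and Hist1h1t were chosen after their values were seen. Replicates of a group differed by a chi-square of at least 15.4 per degree of freedom, so none was a copy of another. A floor of 3 counts equals 0.0763 to 0.0986 CPM, for counting error only. The values of 1 relative and its pair are not reported here.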

Additional observations from a re-analysis of the deposited data

How the results depend on the processing

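Precision rests on 3 samples per group. The number of genes called was 1770, 669 higher and 1101 lower. With single libraries left out it ran from 1 to 3149 (0 to 1457 higher, 1 to 1692 lower), and was 5, 1 and 425 without wild-type sample 1, 2 and 3 and 1, 3149 and 327 without knockout sample 1, 2 and 3. The regulators called were 3, and 0 to 5 with single libraries left out. The other-regulators list had 0 to 8 calls and the list of 29 linked genes 0 to 9. With the GC and length trends removed, 18 genes (4 higher, 14 lower) and 0 regulators passed, and 0 of each list. The trends were also removed without knockout sample 2, an alternative added after seeing the data. It called 2910 genes (1529 higher, 1381 lower), with 3 regulators, 6 other regulators and 5 linked genes. DESeq2 gave 3305 genes (1542 higher, 1763 lower), 5 regulators, 7 other regulators and 9 linked genes. DESeq2 size factors in edgeR gave 1 other regulator and 3 linked genes. No filter gave 1010 genes (370 higher, 640 lower), 0 other regulators and 2 linked genes. Requiring 1 CPM in at least 3 samples gave 4 other regulators. The cause of each was not tested. A replicate block gave 21 genes (8 higher, 13 lower) and 0 regulators or list genes. Same-numbered samples deviated from their group means with correlations of -0.286, -0.0558 and -0.126. The labels state no pairing, and these correlations cannot show whether samples were paired, because library trends also enter them.

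Directions turned for regulators that were not called. Tcfl5 had 0.17 with the trends removed (0.19 also without knockout sample 2) and -0.11 to 0.070 with single libraries left out, being 0.010 without knockout sample 2. With the trends removed Ovol1 had 0.063 and Crem -0.16 (Crem -0.14 also without knockout sample 2). Rfx2 had 0.19 with the trends removed (0.37 also without knockout sample 2) and -0.36 to 0.19 with single libraries left out. Removing the trends from the ratios, an alternative added after seeing the data, gave differences of 0.21 for Taf7l to Taf7, -0.073 for Mybl1 to Mybl2 and 0.19 for Crem to Creb1. With single libraries left out the difference was -0.14 to 0.10 for Taf7l to Taf7, -0.17 to 0.18 for Crem to Creb1 and -0.040 to 0.35 for Rfx2 to Rfx1. The ratios from raw counts equal those from scaled values by construction.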
